A study of Mus musculus with 2 samples.

Results

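The proteasome genes of the mouse hippocampus were followed on a pair of arrays, 1 from sham-operated mice and 1 from 5/6Nx mice, for the core particle, the regulatory particle and the proteins that assemble, open or block them. Members were all non-control array features whose gene name in the scanner files starts with Psm, a letter from a to g and a digit, without the interferon-inducible catalytic subunits Psmb8, Psmb9 and Psmb10, which served as a comparison. The rule found 46 genes, on 58 probes and 67 spots, among 34741 genes and transcripts on 55681 probes. Of the 46 genes, 44 were measured, meaning that the probe used was well above background on both arrays, and the same held for 25917 genes of the whole array.

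Both groups were ICR mice, an outbred strain, sampled 8 weeks after the operation. The abbreviation 5/6Nx commonly stands for 5/6 nephrectomy, an operation that leaves little kidney tissue and serves as a model of chronic kidney disease. RNA from the hippocampus was labelled with Cy3 and hybridised to 60-mer arrays, with 1 sample and 1 array per group. The number of animals behind an array is not stated in the labels. Without replicates the groups cannot be tested against each other, and each value below describes these 2 arrays.

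The proteasome is the protease that degrades proteins tagged with ubiquitin. Its core particle is a barrel of stacked rings. The outer alpha rings control entry, and the inner beta rings hold the proteolytic sites. A regulatory particle caps the barrel: its base carries ATPases that unfold the substrate, and its lid removes the ubiquitin chain. Other caps, an inhibitor and a set of assembly chaperones act on the same core. In neurons the proteasome has a known part in the turnover of synaptic proteins. Under interferon the beta subunits Psmb6, Psmb7 and Psmb5 can be replaced by Psmb9, Psmb10 and Psmb8, which gives the immunoproteasome of antigen presentation.

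Probes of some standard and inducible catalytic subunits, of the lowest subunit of the regulatory particle and of an activator discussed below are shown first. The Psmb5 and Psme2 probes shown are the dimmer ones of their genes, and the gene values below come from their brighter probes. They were read from the scanner files, and coordinates are those of the mm9 build. Capitals mark the bases shared by the Psmb5 and Psmb8 probes when they are laid side by side without gaps, 31 of 50 overlapping bases (62.0%).
Psmb5 probe, chr14:55233161-55233220, minus strand: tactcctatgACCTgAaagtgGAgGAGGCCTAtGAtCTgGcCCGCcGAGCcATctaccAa
Psmb8 probe, chr17:34337771-34337830, plus strand: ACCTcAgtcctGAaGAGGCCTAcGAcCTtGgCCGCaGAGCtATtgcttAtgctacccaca
Psmb9 probe, chr17:34319174-34319233, minus strand: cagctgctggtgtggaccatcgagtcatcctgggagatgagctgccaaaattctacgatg
Psmb7 probe, chr2:38468966-38489385, minus strand, across an intron: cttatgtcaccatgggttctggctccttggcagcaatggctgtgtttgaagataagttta
Psmd14 probe, chr2:61599058-61599117, plus strand: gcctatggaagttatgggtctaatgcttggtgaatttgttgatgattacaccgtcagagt
Psme2 probe, chr14:56208888-56209346, minus strand, across an intron: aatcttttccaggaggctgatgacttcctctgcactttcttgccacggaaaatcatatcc

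Each array held 59305 non-control spots, of which 72.7% in sham and 72.5% in 5/6Nx were well above background, and 0 were saturated. To make the arrays comparable, each was divided by its own 75th percentile of signal (1453 for sham, 1264 for 5/6Nx). A difference is the log2 value of 5/6Nx less that of sham, so equal signals on both arrays correspond to a difference of 0.20. A gene is represented by its brightest probe. Over all measured genes the differences had a median of 0.05, against which the members are read. Where a gene had several measured probes (7995 genes), the SD of their differences was 0.20 in the median. This spread between probes can include differences between transcripts of a gene, and it leaves out the variation between animals. Of the marker lists, all 10 genes of hippocampal neurons were measured, with a median of 0.23, close to the 0.20 of equal signals. Above 0 were 8 of the 10, against 14363 of all 25917 measured genes, although Wfs1, a marker of CA1 pyramidal cells, stood at -1.12. Setting the arrays to the spike-in controls lowers all genes by 1 constant, and the marker lists were not recounted there. All 10 choroid plexus markers lay above 0 (0.55 to 6.66, median 3.78), all 9 blood cell markers below 0 (-4.39 to -0.28, median -3.73) and all 8 leptomeningeal markers below 0 (-2.61 to -1.45, median -2.35). These markers moved with the groups, and their part in the proteasome values was not tested. In bulk tissue, fewer cells of a type and less RNA per cell cannot be told apart.

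The proteasome genes lay close together and slightly below the other genes. Of the 44 measured members, 31 (70.5%) had a value below 0, against 44.6% of all measured genes, and their median was -0.10, a change of -6.65%. No member reached a 2-fold difference: 0 were lower, against 3.28% of all measured genes, and 0 were higher, against 4.9%. With 44 members, a count of 0 lies near these shares. At a difference of 1.5-fold the counts on this scaling were again 0 lower, against 8.91%, and 0 higher, against 13.7%. With arrays set to the spike-in controls, some members were over 1.5-fold lower, among them Psmd14 at -0.80 and Psme2 at -0.71. That scaling shifts all genes by 1 constant, and the share of all genes at 1.5-fold was not counted there. On the 75th percentile scaling the values ran from -0.56 for Psmd14 to 0.55 for Psme4. For 23 of the 44 members the distance from the median of all genes was smaller than the spread of 0.20 between probes of a gene. Relative to the median of all genes, 36 members (81.8%) lay below it. That count was 31 after quantile normalization and 32 with the trend of the differences with signal removed.

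Signal moved with this shift over all measured genes (Spearman correlation -0.20), though not clearly within the 44 members (0.09). When the measured genes were split by mean signal into 10 classes of equal size, the brightest class held 17 members. In that class 54.4% lay below 0 and 62.7% below the median of all genes, with a median of -0.03. Its 17 members had a median of -0.07 and 12 below 0. Large differences were rarer in that class. Of its 2592 genes, 27 (1.04%) were at least 2-fold lower and 32 at least 2-fold higher. At 1.5-fold the counts were 118 (4.55%) lower and 111 higher. In all, 30 of 44 members belonged to the brightest 2 classes. The count below 0 also moved with scaling. After quantile normalization it stayed at 31 of 44, while 49.5% of all genes lay below 0. With the trend with signal removed it was 32, against 50.1% of all genes. With arrays set to their median it was 40, against 60.1% of all genes, and with arrays set to the spike-in controls 42, against 67.7%.

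**Figure D1:**
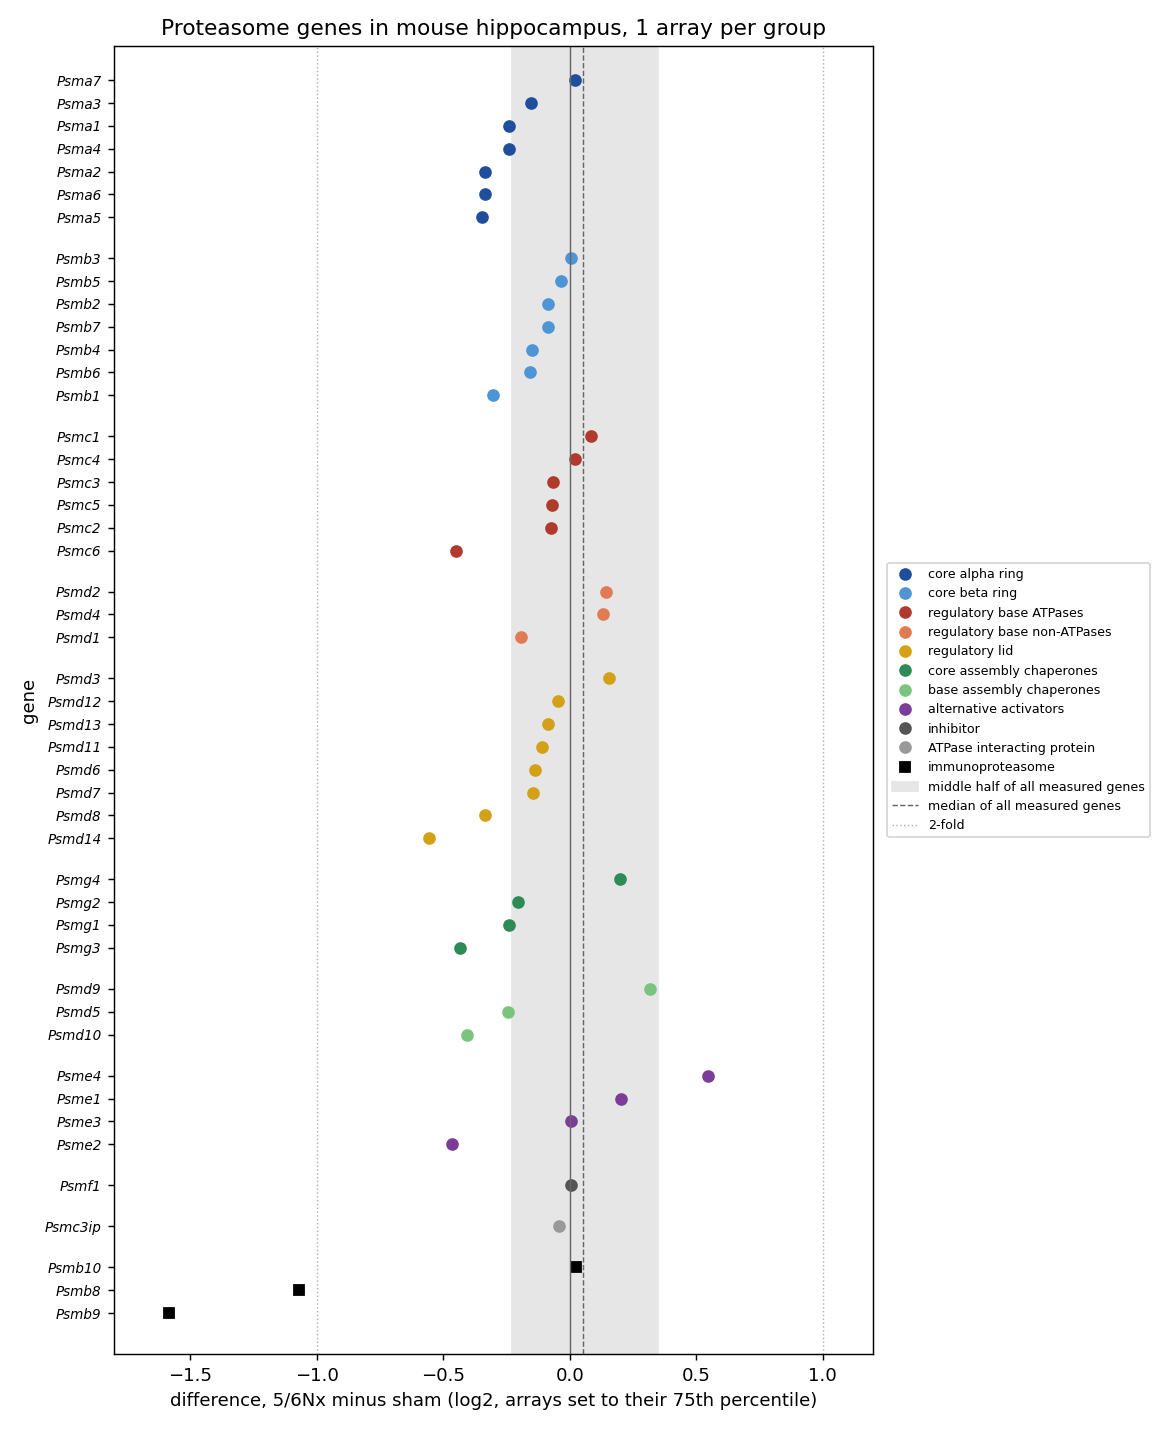
Differences of the 44 measured proteasome genes and of the 3 immunoproteasome genes, grouped by role, on a log2 scale, with 1 point per gene. The shaded band spans the interquartile range of all measured genes, the solid line marks 0, the dashed line the median of all genes and the dotted lines 2-fold. Members lie between -0.56 and 0.55, and of the genes drawn Psmb8 and Psmb9 lie beyond 2-fold.

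The core and the regulatory particle were then compared. Of the core particle 14 of 16 genes were measured, with a median of -0.15 (-10.2%) and 12 below 0, and all 14 lay below the median of all genes. After quantile normalization, or with the trend with signal removed, Psma7 and Psmb3 lay above that median. The regulatory particle had 17 of 17 genes measured, with a median of -0.07 (-4.90%), 12 below 0 and 13 below the median of all genes. The gap between the medians was -0.08 (core minus regulatory), and it could not be tested. It was smaller than the spread of 0.20 between probes of a gene, which describes single genes and not a median over genes. The ranges of the particles overlapped: 11 of the 17 regulatory genes fell inside the core range of -0.35 to 0.02, 2 below it (Psmd14 and Psmc6) and 4 above it (Psmc1, Psmd2, Psmd3 and Psmd4). The regulatory genes were the more spread out, with an SD across genes of 0.20 against 0.13 for the core. Within the core, the alpha and beta rings were further apart (-0.15, alpha minus beta) than the core and the regulatory particle.

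Alpha ring genes, whose products form the gate of the barrel, had a median of -0.24, and 6 of the 7 measured lay below 0. Psma5 had a signal of 21536 in sham and 14738 in 5/6Nx, a difference of -0.35. Signal for Psma6 was 15790 and 10884 (-0.34), and for Psma2 63038 and 43453 (-0.34). These 3 were the lowest of the ring, with sham the higher array in each. Psma4, measured by 2 probes, gave -0.24 (11933 in sham, 8786 in 5/6Nx) and -0.31, Psma1 gave -0.24 and Psma3 -0.15. Psma7 stood apart from the others, with signals of 40170 and 35444 and a difference of 0.02, which was -0.22 with spike-in scaling. Psma8, the alpha subunit known from testis, was on both arrays not well above background, with signals of 9.15 and 13.1, and gets no difference here.

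Beta ring genes had a median of -0.09, with 6 of 7 measured genes below 0 and a range of -0.30 to 0.01. The lowest was Psmb1, a non-catalytic subunit, with 23928 in sham and 16868 in 5/6Nx (-0.30). Its non-catalytic partners Psmb4 (84895 and 66487) and Psmb2 gave -0.15 and -0.09, and Psmb3 gave 0.01, with signals of 54001 and 47169 and a value of -0.24 with spike-in scaling. Thus Psmb1 lay closer to the alpha ring genes than to the rest of its own ring. Psmb11, a catalytic subunit known from the thymic cortex, was on both arrays not well above background (14.9 and 19.2).

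The 3 catalytic subunits lay between -0.16 and -0.04. Psmb6, which carries the caspase-like activity, had a signal of 85309 in sham and 66565 in 5/6Nx (-0.16). Psmb7, which carries the trypsin-like activity, had 14346 and 11744 (-0.09). Psmb5, which carries the chymotrypsin-like activity and is a target of proteasome inhibitor drugs, had 149513 and 126809 on its brightest probe (-0.04) and 35231 and 29215 (-0.07) on the probe printed above. With spike-in scaling they stood at -0.40 for Psmb6, -0.33 for Psmb7 and -0.28 for Psmb5.

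Their inducible counterparts did not all follow them. Psmb9, which replaces Psmb6, had a signal of 1620 in sham and 470.5 in 5/6Nx, a difference of -1.58 or 2.99-fold lower. Psmb8, which replaces Psmb5, had 1400.4 and 580.5, a difference of -1.07 or 2.10-fold lower. Psmb10, which replaces Psmb7, had 37966 and 33583, a difference of 0.02 that was -0.22 with spike-in scaling. Set against the standard subunit it replaces, Psmb9 was lower by a further 2.69-fold and Psmb8 by a further 2.05-fold, whereas Psmb10 exceeded Psmb7 by 0.11 on the log2 scale. Psmb9 was at least 2-fold lower under all 12 alternative settings, and Psmb8 under 10 of 12, with -0.97 after normexp background correction and -0.96 without background subtraction. Settings that changed only the filter, the averaging of probes or the outlier spots left both values as reported. Scaling to the array median or the spike-in controls lowered both by a constant shared by all genes. On both arrays a second Psmb9 probe was not well above background. Blood cell genes also stood lower on the same array, 7 of 9 by 2-fold or more, against 3.28% of all measured genes. Among the leukocyte genes of that list, S100a9 stood at -4.39, S100a8 at -4.34 and Lyz2 at -0.90. The leukocyte marker Ptprc stood at -0.28 on a dim probe (74.8 in sham, 53.5 in 5/6Nx). The part of blood cells in the Psmb8 and Psmb9 values was not tested.

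The genes with which the immunoproteasome is usually co-induced were also examined. Of 7 genes of class I peptide loading, 7 lay below 0, against 44.6% of all measured genes, and 1 was at least 2-fold lower, against 3.28%. This was B2m at -1.09 (14093 in sham, 5763 in 5/6Nx), with H2-K1 at -0.62 (7359 and 4153). Erap1 stood at -0.77 on a dim probe, with signals of only 47.8 and 24.4. Of 11 interferon-stimulated genes, 10 lay below 0, against 44.6% of all measured genes. At least 2-fold lower were 7, against 3.28%, and 2-fold higher 0, against 4.9%, with a list median of -1.67. Among them Gbp2, a guanylate-binding protein, was 7.69-fold lower in 5/6Nx (-2.94). Irf1, a transcription factor of these genes, was the 1 gene of the list above 0 (2930 and 3108, 0.29), and it is named after its value was seen.

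In the regulatory base, the 6 ATPases had a median of -0.07, and 4 of the 6 lay below 0. Psmc6 was the lowest, with a signal of 8356 in sham and 5317 in 5/6Nx, a difference of -0.45. The other 5 stayed between -0.07 and 0.08: Psmc2 at -0.07, Psmc5 at -0.07, Psmc3 at -0.07, Psmc4 at 0.02 and Psmc1 at 0.08. Psmc1 had 87031 and 80123 on its brightest probe, but its other probe gave -0.08 (27516 and 22656), so its sign is not settled. With spike-in scaling Psmc1 stood at -0.16 and Psmc4 at -0.23, while Psmc5 ranged from -0.32 to 0.01 over the alternative settings.

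The non-ATPase subunits of the base include the scaffolds Psmd1 and Psmd2 and the ubiquitin receptor Psmd4. Psmd1 gave -0.19 (39489 in sham, 30010 in 5/6Nx). Psmd2 gave 0.14 (19954 and 19158) and Psmd4 0.13 (52092 and 49597), so the scaffolds lay on opposite sides of 0. With spike-in scaling Psmd2 and Psmd4 stood at -0.10 and -0.11.

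The lid had a median of -0.12, and 7 of its 8 genes lay below 0. Psmd14, the deubiquitinase that cuts the ubiquitin chain from the substrate, had a signal of 4639 in sham and 2741 in 5/6Nx. Its difference of -0.56, or 1.47-fold lower, was the lowest of all members, and 9.60% of all measured genes lay below it. Psmd8 followed, with 10814 and 7445 (-0.34). The structural subunits Psmd7 (-0.15), Psmd6 (-0.14), Psmd11 (-0.11), Psmd13 (-0.09) and Psmd12 (-0.05) stood within a narrow range. Psmd12 had a second, dimmer probe at -0.21, and its value ranged from -0.29 to 0.03 over the alternative settings. Psmd3 was the exception, with 55886 and 54116 and a difference of 0.16, which was -0.09 with spike-in scaling.

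**Figure D2:**
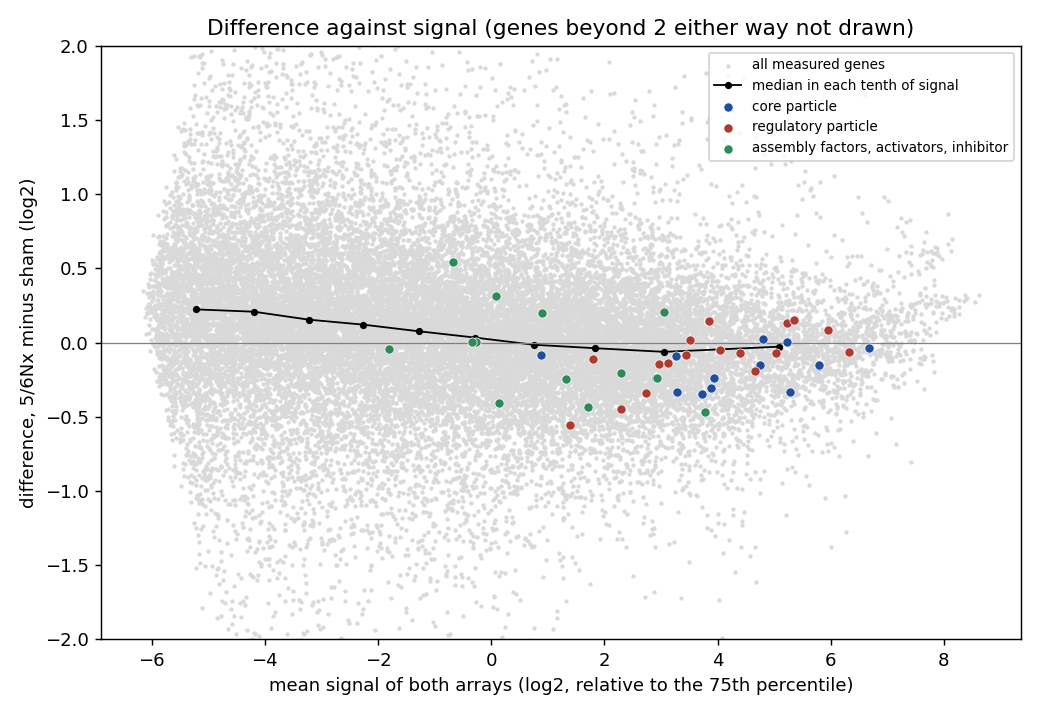
Difference between 5/6Nx and sham against the mean signal of both arrays, each on a log2 scale, with 1 point per gene. Grey points are all measured genes, the black line joins the medians of 10 signal classes of equal size (0.22 in the dimmest, -0.03 in the brightest), and proteasome genes are coloured by particle. Of 44 members 30 lie in the brightest 2 classes.

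Assembly of the proteasome needs chaperones that do not stay in the finished particle. Of the 4 core chaperones, 3 lay below 0. Psmg3 was the lowest, with a signal of 5515 in sham and 3546 in 5/6Nx (-0.44). Psmg1 and Psmg2, which pair to start the alpha ring, gave -0.24 (11965 and 8815) and -0.20 (7617 and 5747). Psmg4, the partner of Psmg3, gave 0.20, with nearly equal signals of 2528 and 2519. The value of Psmg4 was -0.05 with spike-in scaling.

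The 3 base chaperones diverged in the same way. Psmd10, also known as gankyrin, had 1850 and 1213 (-0.41) on its brightest probe and 1058 and 600.4 on the other, a difference of -0.62 or 1.53-fold lower. Psmd5 gave -0.24 (3955 and 2905). Psmd9 gave 0.32, with 1379 in sham and 1493 in 5/6Nx, and its other probe gave 0.21. Psmd9 and Psme4 were the members with a value above 0 in every alternative that measured them. Psmc3ip, which is named for binding an ATPase subunit and is known as a recombination factor of meiosis, gave -0.04 (422.1 and 356.3).

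The activators that can take the place of the regulatory particle were the most varied group, from -0.47 to 0.55. Psme1 and Psme2 encode the alternating subunits of a single ring that interferon induces. The Psme1 probe was printed 10 times on each array. Its spots ran from 11081 through a median of 11306 to 11557 in sham, and from 11089 through 11328 to 11556 in 5/6Nx. These spots overlapped almost completely, with an SD of 0.02 on the log2 scale on each array, and the difference after scaling was 0.20, which was -0.04 with spike-in scaling. Psme2, in contrast, had 23430 in sham and 14749 in 5/6Nx (-0.47), so the ratio of Psme1 to Psme2 was 1.59 times as high in 5/6Nx as in sham.

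The probes of Psme2 did not all give this value. The probe printed above, which lies nearer to the start of the same RefSeq transcript, had 5558 and 3757 (-0.36). A dimmer probe, designed on an Ensembl transcript whose coordinates reach from 56209736 to 56429032 on chromosome 14 of mm9, had 227.3 and 219.0 (0.15). The probe gap of 0.61 was the only one above 0.5 among the 11 members with several measured probes. With the mean over all probes Psme2 stood at -0.23. The RefSeq table also lists Psme2b, a copy of Psme2 on another chromosome, and pseudogenes of Psma5, Psmb5, Psmb6 and Psmb7, and whether these contribute to the probe signals was not tested.

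Psme3 encodes the activator of the nucleus and differed little, with 1205 and 1051 (0.00, and -0.24 with spike-in scaling). Psme4 encodes a large activator of a single chain, known for its part in DNA repair and spermatogenesis. It had 755.7 in sham and 958.9 in 5/6Nx on its brightest probe (0.55, or 1.46-fold higher) and 772.5 and 922.8 on the other (0.46). It was the highest of all members on either probe. Psmf1, the inhibitor that binds the core, gave 0.01 (1143 and 998.2) and stood at -0.24 with spike-in scaling.

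**Figure D3:**
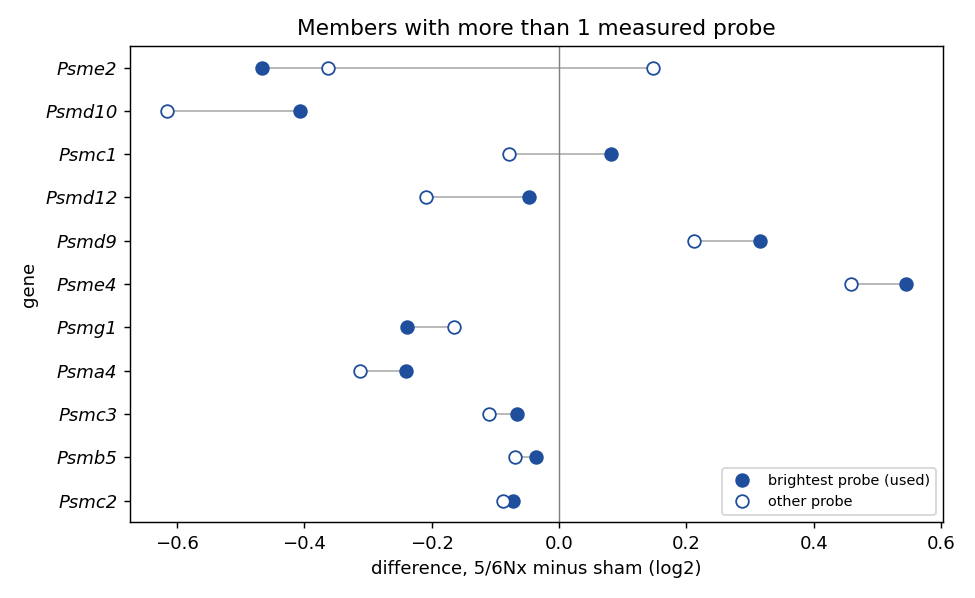
Difference between 5/6Nx and sham (log2, horizontal axis) for each measured probe of the 11 members that had more than 1, with filled circles for the brightest probe, which represents the gene, and open circles for the others. In 9 of the 11 genes all probes lie on the same side of 0; the exceptions are Psme2 and Psmc1.

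Among the 11 members with several measured probes, 9 had all probes on 1 side of 0, and the median gap between the lowest and the highest probe was 0.09. The other 33 measured members rest on a single probe. The difference of a member had a Pearson correlation of 0.33 (Spearman 0.34) with the GC content of its probe and of -0.07 (Spearman 0.09) with its mean signal, across 44 genes that share both arrays and are not independent. Over all 25917 genes the correlations were 0.07 (Spearman 0.10) with GC content and -0.14 (Spearman -0.20) with signal.

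Further genes of the pathway were described from lists. Of 6 subunits and assembly factors with other names, 5 were measured. At least 2-fold lower or higher were 0, against 3.28% and 4.9% of all measured genes. Their median was -0.32, and the lid component Sem1 (-0.32) and the nuclear import factor Akirin2 (-0.41) lay below 0. Ecpas, a proteasome adaptor, gave 0.44. All 7 deubiquitinases, ligases and cofactors that bind the proteasome lay below 0, against 44.6% of all measured genes, with a median of -0.29. Of these 7, 0 were at least 2-fold lower, against 3.28%, and so short a list makes that count of little weight. They included the proteasome phosphatase Ublcp1 (15725 in sham, 8833 in 5/6Nx, -0.63), the thioredoxin-like Txnl1 (-0.61) and the zinc finger protein Zfand5 (-0.33).

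The genes of transcriptional control had a median of -0.06 over 5, with Ddi2, the protease that activates Nfe2l1, at 0.31 (755 in sham, 816 in 5/6Nx). Nfe2l1, the factor that raises proteasome genes when the proteasome is inhibited, had 848.3 and 911.8 (0.31), and Ngly1, the glycanase that processes it, gave -0.34. Equal signals read as 0.20 on this scale, so most of the 0.31 of Ddi2 and of Nfe2l1 comes from the scaling. Ubiquitin genes and the enzymes that activate ubiquitin had a median of -0.06 over 6, with the activating enzyme gene Uba6 at -0.67 and the main one, Uba1, at -0.11. The genes of the p97 segregase had a median of -0.02 over 5, with the cofactor Nploc4 at 0.70. In these 3 lists 0 genes were at least 2-fold lower, against 3.28% of all measured genes, and 0 higher, against 4.9%. Lists of 5 or 6 genes are too short for a count of 0 to be read as a result.

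Since most members lay on 1 side of 0, their promoters were read from RefSeq sequences of the GRCm38.p6 build, from 250 bases before to 50 bases after the start. They were found for 38 of the 46 genes. Motifs were searched on both strands: TGACNNNGC, the core of the antioxidant response element read by Nfe2l1 and Nfe2l2, CCAAT, the box bound by NF-Y, the palindrome of GCGCA and TGCGC that nuclear respiratory factor binds, and TATAAA. TGACNNNGC was in 6 of 38 members (15.8%) and in 3781 of 27025 genes. CCAAT was in 14 of 38 (36.8%) against 41.1%, the palindrome in 2 of 38 (5.26%) against 1.07%, and TATAAA in 3 of 38 (7.89%) against 15.7%. In the core particle CCAAT was in 7 of 12 genes (58.3%), and in the regulatory particle in 4 of 14 (28.6%). These are matches of letters and not shown binding sites.

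Interferon motifs were added after the values of the immunoproteasome genes were seen: a pair of GAAA repeats with 2 bases between, and TTCNNNGAA. The GAAA pair was in 5 of 38 members (13.2%) against 3.99% of genes, among them Psme1 but not Psme2, and in 0 of the 3 immunoproteasome genes. TTCNNNGAA was in 2 of 38 (5.26%) against 9.55%, and in Psmb8 of the immunoproteasome genes.

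The 130 bases before the start are shown for 3 alpha ring genes with values between -0.34 and -0.24 and a CCAAT box, and for the 2 catalytic subunits with a TGACNNNGC match close to the start. Capitals mark the match on either strand. Psma2 also holds the palindrome, left in lower case.
Psma1 promoter, chr7:114276117-114276246, minus strand: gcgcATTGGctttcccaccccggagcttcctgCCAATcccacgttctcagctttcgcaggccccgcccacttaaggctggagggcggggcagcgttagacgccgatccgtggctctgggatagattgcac
Psma2 promoter, chr13:14613112-14613241, plus strand: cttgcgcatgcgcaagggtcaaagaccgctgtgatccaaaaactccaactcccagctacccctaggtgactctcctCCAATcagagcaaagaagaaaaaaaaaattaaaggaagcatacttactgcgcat
Psma6 promoter, chr12:55384092-55384221, plus strand: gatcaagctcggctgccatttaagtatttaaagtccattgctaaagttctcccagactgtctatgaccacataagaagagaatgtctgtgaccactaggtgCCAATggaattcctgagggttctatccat
Psmb5 promoter, chr14:54617996-54618125, minus strand: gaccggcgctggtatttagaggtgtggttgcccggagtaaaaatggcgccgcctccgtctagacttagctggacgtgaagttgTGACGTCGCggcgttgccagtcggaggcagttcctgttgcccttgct
Psmb6 promoter, chr11:70525227-70525356, plus strand: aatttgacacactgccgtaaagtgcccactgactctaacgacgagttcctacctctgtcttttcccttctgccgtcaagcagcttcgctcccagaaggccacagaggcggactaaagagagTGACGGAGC
The box was not confined to genes with low values: Psma7 (0.02), Psmb3 (0.01) and Psma3 (-0.15) also hold it and are not printed. The alpha ring genes shown differ in the number and place of the CCAAT box. Counted from the start, Psma1 has matches at -126 and -98, Psma2 at -54, and Psma6 at -29 and, beyond the bases printed, at -136.

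Members lay on 16 chromosomes, with 9 on chromosome 11 of mm9. Psme1 and Psme2, which differed by 0.67 on the log2 scale, have probes on chromosome 14 only a few kilobases apart, at 56200194-56200253 on the plus strand and 56206296-56206355 on the minus strand. Psmb8 and Psmb9, both at least 2-fold lower, are neighbours on chromosome 17.

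**Figure D4:**
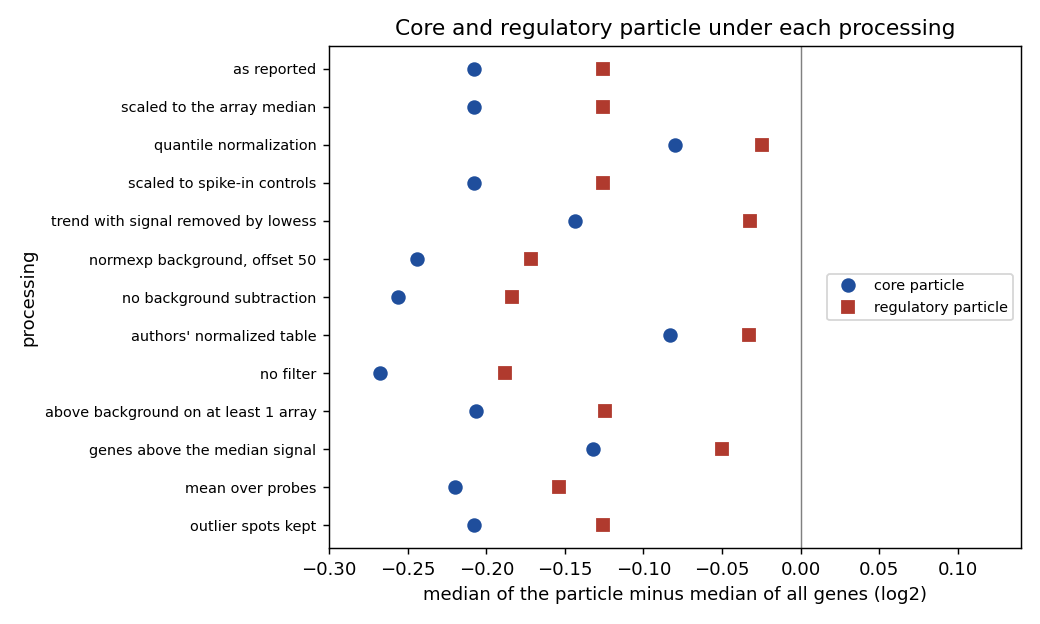
Median difference of the core particle (circles) and of the regulatory particle (squares) minus the median of all genes, on a log2 scale, as reported and under 12 other ways of processing the arrays. The core lies to the left of the regulatory particle in each, and the regulatory particle comes closest to 0 after quantile normalization, at -0.02.

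Relative to the median of all genes, the core particle stood at -0.21 and the regulatory particle at -0.13. After quantile normalization these values were -0.08 and -0.02, in the authors' normalized table -0.08 and -0.03, and with the trend with signal removed -0.14 and -0.03. The core lay below the regulatory particle in all 13 settings, with gaps of -0.11 to -0.05 that reuse the same 2 arrays. Scaling to the array median or the spike-in controls shifts all genes by 1 constant and cannot change the gap. The gap also stayed at -0.08 where a looser or stricter filter, or outlier spots kept, left the member values unchanged.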

How the data were processed

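Per the file headers, the authors extracted the scanner intensity values with Agilent Feature Extraction 10.7.1.1, whereas 9.5.1.1 is the version in the submitters' processing notes. The deposited processed intensity is background-subtracted and detrended within each array and not normalized between arrays. A further deposited table, of linear intensity whose columns share 1 distribution, served as an alternative.

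Controls and outlier-flagged spots were dropped, log2 values were set to each array's 75th percentile, and spots of a probe were averaged. The brightest probe by mean log2 that exceeded background clearly on either array stood for a gene, which was measured if it did so on both. Genes were named through RefSeq (GRCm38.p6): 27235 probes by accession, 3581 by symbol, 565 by synonym, and 24300 kept the file's name. A call is a 2-fold difference, which is a size and not a test. Every member was reported, with both signals for those called, at the extremes of a particle, catalytic, or outside the particles, and up to 3 genes with the largest differences in each other list. Alternatives changed the scaling, background, dim-probe filter, choice of probe and threshold. The number of arrays, 1 a group, limits the precision. The members and lists were chosen with earlier results of these data known. The calculation was tested on simulated data. Python 3.11.15, R 4.3.3 and limma 3.58.1 (normexp) were used. The list of shuttle factors is not reported here.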

Additional observations from a re-analysis of the deposited data

How the results depend on the processing

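No paired analysis was possible because there is a single array for sham and a single one for 5/6Nx, and for the same reason none could be left out. Values of dim probes are limited by their closeness to background. A median counted as moved when it shifted by more than 0.20, the median SD of the difference between probes of 1 gene. This size comes from single genes and does not give the uncertainty of a median over genes. With spike-in scaling, which shifts all genes by 1 constant, the core median was -0.40 and the regulatory median -0.32. Both medians shifted by less under the other settings. Where 44 members were measured, the count below 0 was 31 as reported, 40 with arrays set to their median and 42 with spike-in scaling. In no setting run were members 2-fold apart. The thresholds of 1.5-fold and 3-fold, with 0 members each, were applied to the reported scaling only. Of 527 member values under alternatives, 45 moved by more than that spread. In all, 29 members stayed below 0, 2 above 0, and 13 differed in sign between settings. All alternatives reuse the same 2 arrays.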
